A study of Gossypium hirsutum with 9 samples.

Results

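DGAT2 and LCAT3 are symbols of 2 kinds of enzyme that act on glycerolipids, and the transcripts of the 10 upland cotton (Gossypium hirsutum) genes with either symbol were followed in developing fibre. The members are all genes whose symbol in the deposited expression table is DGAT2 (8 genes) or LCAT3 (2 genes), of 70478 genes in all. Of the 10, Gh_D11G0596 (DGAT2) and Gh_A08G2009 (LCAT3) were singled out because earlier results of these data showed them lower in the RNAi fibres. Their difference between the groups is therefore given as a description without a test, and their namesakes are set beside them library by library. In the RNAi group GhWRKY16, a gene for a WRKY transcription factor, was targeted by RNA interference, and the WT group is wild type. All plants were grown in the field, and total RNA came from fibres at 9 days post anthesis (DPA). The labels list 6 RNAi and 3 WT samples, of which 5 RNAi libraries (replicates 2 to 6) and 3 WT libraries had values that were used, and RNAi replicate 1 was not analysed here. No label or protocol used here names the promoter of the construct, the number of transgenic lines or the plants behind each replicate. The p-values therefore cover the spread among these libraries only, which may be technical.

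DGAT2 enzymes sit in the endoplasmic reticulum and carry out the last step of triacylglycerol synthesis, the transfer of an acyl chain from acyl-CoA to diacylglycerol. They share this reaction, but not their sequence, with the DGAT1 enzymes. LCAT3 is known from Arabidopsis as a phospholipase of the lecithin:cholesterol acyltransferase family, which releases a fatty acid from phosphatidylcholine, and the same family includes the PDAT enzymes that make triacylglycerol by taking an acyl chain from a phospholipid. A cotton fibre is a seed coat epidermal cell that elongates greatly, with high demand for membrane lipid. Upland cotton holds an A and a D subgenome, so most genes occur as near-identical copies, and the level of a single copy is uncertain if reads fit more than 1 of them.

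Levels are in FPKM, fragments scaled by transcript length and by library size, as the authors deposited them. The FPKM columns summed to between 1200826 and 1296912. Relative depth, estimated from low values, ran from 0.366 times that of WT replicate 1 in RNAi replicate 4 to 2.19 times in RNAi replicate 5. RNAi replicate 4 also had the lowest mean correlation with the other libraries across genes, 0.940 on the log2(FPKM + 1) scale. Fibre markers were abundant in both groups, with a list sum between 40022 and 49025 FPKM in RNAi and between 46118 and 48208 in WT. The 6 genes with the symbol E6, an abundant cotton fibre protein, summed to between 30949 and 39487 FPKM in RNAi libraries and between 36116 and 39200 in WT libraries. The mean of the E6 sum was lower in RNAi, 35620 against 38048 FPKM, with overlapping groups. Over the whole fibre list, 0 of 60 tested genes passed the limma threshold defined below, against 0.167% of all tested genes. An unadjusted p under 0.05 was found for 9 of the 60, against 5.86% of all tested genes. Of the 60, 50 had a positive and 10 a negative log2 fold change (RNAi minus WT), whereas 53.6% of all tested genes had a negative one. The median was 0.27 against -0.02 over all tested genes, so most of the list was higher in RNAi, unlike the E6 sum. The seed storage genes LEGA, LEGB and AT2S3 were listed at 0 in every library. The embryo list as a whole (41 genes) summed to between 1.09 and 6.14 FPKM in RNAi and between 3.51 and 9.49 in WT. Only 2 embryo genes were tested, both with a negative log2 fold change (median -0.62). Of these 2, 0 passed the limma threshold and 1 had an unadjusted p under 0.05. Among leaf markers, 0 of 71 tested genes passed that threshold and 12 had an unadjusted p under 0.05. For the fibre and leaf lists the share with an unadjusted p under 0.05 was above the 5.86% of all tested genes. Of the 71, 46 had a negative and 25 a positive log2 fold change, against 53.6% negative over all tested genes, with a median of -0.13. The leaf list of 255 genes summed to between 565 and 1364 FPKM in RNAi and between 914 and 1093 in WT. Its RBCS genes, for the small subunit of Rubisco and singled out after their values were seen, went the other way from most of the list and summed to between 7.80 and 12.2 FPKM in RNAi and between 2.02 and 4.40 in WT. Of the seed coat list, BAN and AHA10 were present, and the BAN genes summed to between 163 and 428 FPKM in RNAi and between 179 and 216 in WT. Whether these cell markers have a part in the results below was not tested. No symbol in the table could be tied to the silenced GhWRKY16, so the silencing was not checked.

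RNAi and WT were compared on log2(FPKM + 1) with limma for each gene that reached 1 FPKM in 3 or more libraries, and a gene passed at a Benjamini-Hochberg adjusted p under 0.05 over all 34051 such genes. Of these, 27 rose (0.0793%) and 30 fell (0.0881%) in RNAi, or 0.167% in either direction. The groups did not overlap in 4.07% of the tested genes, and 2.35% had no overlap and were lower in RNAi. Of the 10 DGAT2 and LCAT3 genes, 9 could be tested, and the 2 that passed are the ones chosen for that reason, so their number says nothing further. The chosen gene nearest to the threshold, Gh_A08G2009, had a log2 fold change of -2.07, and the nearest member outside it, Gh_D08G2402, had -0.49.

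Gh_D11G0596 (DGAT2), a gene on chromosome D11, had a far lower level in RNAi than in WT fibres. Its level was 0.925, 0.181, 0.454, 0.266 and 0.672 FPKM in RNAi replicates 2 to 6, against 6.32, 11.02 and 6.61 FPKM in WT replicates 1 to 3. All RNAi libraries lay under 1 FPKM and all WT libraries above 6 FPKM, so the groups did not overlap. The means were 0.4996 ± 0.304 FPKM in RNAi (SD, n = 5) and 7.98 ± 2.64 FPKM in WT (SD, n = 3), 15.98-fold lower in RNAi. On the log2(FPKM + 1) scale, which understates changes of low genes, the difference was -2.57.

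Within WT, WT replicate 2 was highest, and in RNAi no library approached the WT range. In bulk RNA, fewer cells that express the gene and less of its RNA per cell cannot be told apart. A count of the fragments behind these values was sought after the data were seen. An FPKM value multiplied by the library's relative depth is proportional to the number of fragments, and the smallest whole numbers that match these products in all 8 libraries within 0.05 were looked for. For Gh_D11G0596 these numbers were 14, 4, 2, 7 and 9 in RNAi replicates 2 to 6, or 36 in all. In WT replicates 1 to 3 they were 76, 234 and 110, or 420 in all, and the largest deviation from a whole number was 0.0043. True numbers could be a multiple of these. The order of the RNAi libraries among themselves thus rests on few fragments if these are the true numbers.

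The other DGAT2 genes made up nearly all of the DGAT2 transcript pool. Gh_D11G0600 and Gh_A11G0515 had the highest levels, and Gh_D11G0599 was listed at 0 in every library. Gh_D11G0600 stood at 130, 145, 61.2, 107 and 77.2 FPKM in RNAi replicates 2 to 6, against 110, 111 and 69.7 FPKM in WT replicates 1 to 3. The WT libraries lay inside the wider range of the RNAi libraries, with the lowest value in RNAi replicate 4 and the highest in RNAi replicate 3. RNAi and WT differed by 0.07 ± 0.28 on the log2(FPKM + 1) scale (SE), with a limma adjusted p of 0.975. Gh_A11G0515 stood at 62.6, 67.04, 125, 66.4 and 91.5 FPKM in RNAi replicates 2 to 6, against 74.6, 78.8 and 74.9 FPKM in WT replicates 1 to 3. Here RNAi replicate 4 was the highest library, and 3 of the 5 RNAi libraries lay under every WT library. The difference was 0.07 ± 0.21 (SE, log2), with a limma adjusted p of 0.967.

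**Figure D1:**
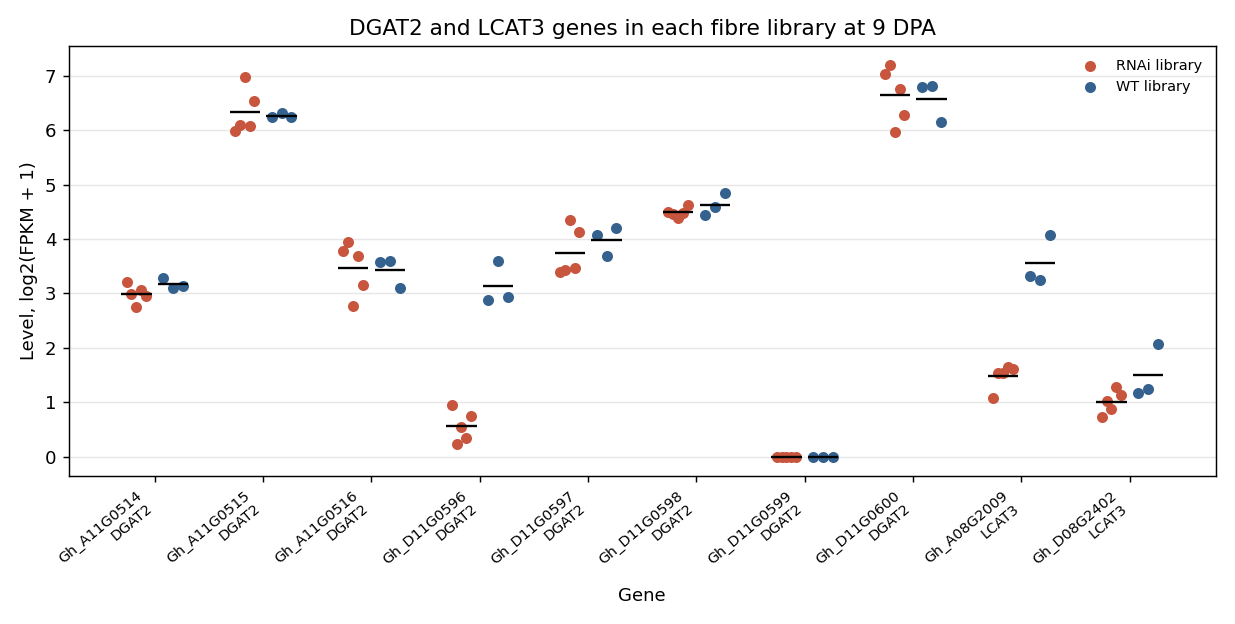
Level of each DGAT2 and LCAT3 gene as log2(FPKM + 1), with 1 point per library, the RNAi libraries left of the WT libraries for each gene, and a bar at the mean of each group. The groups lie apart in Gh_D11G0596 and Gh_A08G2009 and overlap in each of the other members that had values above 0.

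The DGAT2 genes of intermediate level also overlapped between the groups. Gh_D11G0598 averaged 21.6 ± 1.38 FPKM in RNAi and 23.8 ± 3.66 FPKM in WT. Gh_D11G0597 averaged 13.02 ± 4.54 FPKM in RNAi and 15.0 ± 2.82 FPKM in WT. Gh_A11G0516 averaged 10.5 ± 3.56 FPKM in RNAi and 9.89 ± 1.997 FPKM in WT. Gh_A11G0514 averaged 7.01 ± 0.907 FPKM in RNAi and 8.04 ± 0.577 FPKM in WT (SD, n = 5 RNAi and 3 WT libraries for all 4 genes). In the order of WT levels Gh_D11G0596 was thus close to Gh_A11G0514, from which it did not differ beyond its spread, whereas in RNAi it was the lowest DGAT2 gene above 0.

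None of the 6 tested DGAT2 namesakes of Gh_D11G0596 passed limma's threshold, against 0.167% of all genes, with adjusted p from 0.882 to 0.983 and 0 at an unadjusted p under 0.05. Of these 6, 3 had a negative log2 fold change, against 53.6% of all tested genes. Their log2 fold changes ran from -0.23 ± 0.25 for Gh_D11G0597 to 0.07 ± 0.28 for Gh_D11G0600 (SE), and the sign of those of Gh_A11G0515, Gh_A11G0516 and Gh_D11G0600 turned in some of the alternatives. A p that misses the threshold does not show that these genes were equal. With SE up to 0.28 on the log2 scale, moderate differences would not have been detectable.

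Summed over the 8 genes, DGAT2 transcripts came to 239 ± 16.6 FPKM in RNAi (SD, n = 5) and 238 ± 22.7 FPKM in WT (SD, n = 3). The sums ran from 224 to 264 FPKM in RNAi and from 212 to 254 FPKM in WT, so they overlapped. Gh_D11G0596 carried between 0.0685% and 0.377% of this sum in RNAi libraries and between 2.56% and 4.33% in WT libraries. The gene that was lower in RNAi was a minor part of the DGAT2 pool in both groups. Gh_D11G0600 carried 43.1% ± 12.6 in RNAi and 40.3% ± 6.45 in WT, and Gh_A11G0515 carried 34.8% ± 11.8 in RNAi and 32.2% ± 2.78 in WT (SD).

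**Figure D2:**
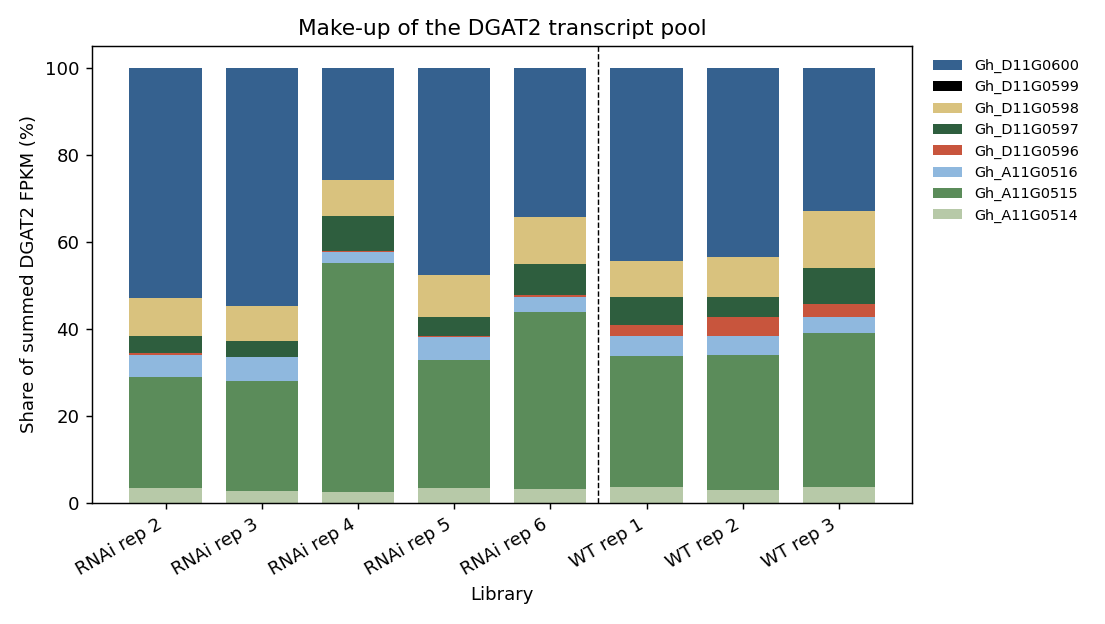
Share of the summed DGAT2 FPKM (percent, vertical axis) carried by each DGAT2 gene in each library, RNAi libraries left of the dashed line and WT libraries right of it. The red band of Gh_D11G0596 spans 2.56% to 4.33% in WT and at most 0.377% in RNAi, and the green band of Gh_A11G0515 is larger than the blue band of Gh_D11G0600 in RNAi replicates 4 and 6 and in WT replicate 3.

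The libraries also differed in the balance between the most abundant DGAT2 genes, across the 2 groups rather than between them. The ratio of Gh_D11G0600 to Gh_A11G0515 was 2.08, 2.16, 0.488, 1.62 and 0.844 in RNAi replicates 2 to 6, against 1.47, 1.41 and 0.930 in WT replicates 1 to 3. It was lowest in RNAi replicate 4, the shallowest library, and below 1 also in RNAi replicate 6 and WT replicate 3.

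Ratios between genes on A11 and D11 were also taken within each library. Gh_D11G0600 and Gh_A11G0516 are both the last DGAT2 gene before a gene with the symbol IDL2 in the numbering of their chromosome. Their FPKM ratio ran from 8.99 to 10.5 in RNAi and from 9.18 to 10.01 in WT. The level of Gh_D11G0600 itself ran from 61.2 to 145 FPKM. As the numbering was examined after the values were seen, this ratio is a description. Gh_A11G0515 and Gh_D11G0597 were set together only after their values were seen, so a steady ratio is no finding, and no value used here shows them to be copies of each other. Their ratios ran from 5.55 to 6.88 in RNAi and from 4.32 to 6.64 in WT. The levels of both genes, though not their ratio, were highest in RNAi replicate 4 among all 8 libraries. How reads that fit several DGAT2 genes were assigned is not given, and a part of it in these ratios was not tested.

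Gh_A08G2009, the LCAT3 gene on chromosome A08, was lower in every RNAi library than in any WT library. Its level was 1.11, 1.90, 1.91, 2.15 and 2.04 FPKM in RNAi replicates 2 to 6, against 9.03, 8.52 and 15.9 FPKM in WT replicates 1 to 3. RNAi replicate 2 was the lowest library, WT replicate 3 stood well above the other WT libraries, and the groups did not overlap. The means were 1.82 ± 0.411 FPKM in RNAi (SD, n = 5) and 11.1 ± 4.12 FPKM in WT (SD, n = 3), 6.11-fold lower in RNAi. The smallest whole numbers for the fragments of Gh_A08G2009 were 24, 60, 12, 81 and 39 in RNAi replicates 2 to 6, against 155, 258 and 377 in WT replicates 1 to 3, with a largest deviation of 0.013.

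The LCAT3 gene on D08, Gh_D08G2402, had a lower level and overlapping groups. It stood at 0.653, 1.04, 0.833, 1.44 and 1.201 FPKM in RNAi replicates 2 to 6, against 1.24, 1.37 and 3.22 FPKM in WT replicates 1 to 3. As with its A08 namesake, WT replicate 3 was highest and RNAi replicate 2 lowest. Without WT replicate 3, its log2 fold change was -0.19, against -0.49 ± 0.24 (SE; limma adjusted p = 0.862) with all libraries. Its smallest whole numbers of fragments ran from 13 in RNAi replicate 4 to 135 in RNAi replicate 5, and from 53 to 190 in WT.

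The balance between the LCAT3 copies, taken within each library, therefore differed between the groups. Gh_A08G2009 had 1.70, 1.84, 2.29, 1.49 and 1.70 times the FPKM of Gh_D08G2402 in RNAi replicates 2 to 6, against 7.27, 6.22 and 4.93 times in WT replicates 1 to 3. It made up between 59.8% and 69.6% of the summed LCAT3 FPKM in RNAi and between 83.1% and 87.9% in WT. The sum was 2.86 ± 0.691 FPKM in RNAi (SD, n = 5) and 13.1 ± 5.22 FPKM in WT (SD, n = 3). Thus the LCAT3 pool followed its chosen member, unlike the DGAT2 pool. Both chosen genes enter these sums and ratios, which are descriptions.

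**Figure D3:**
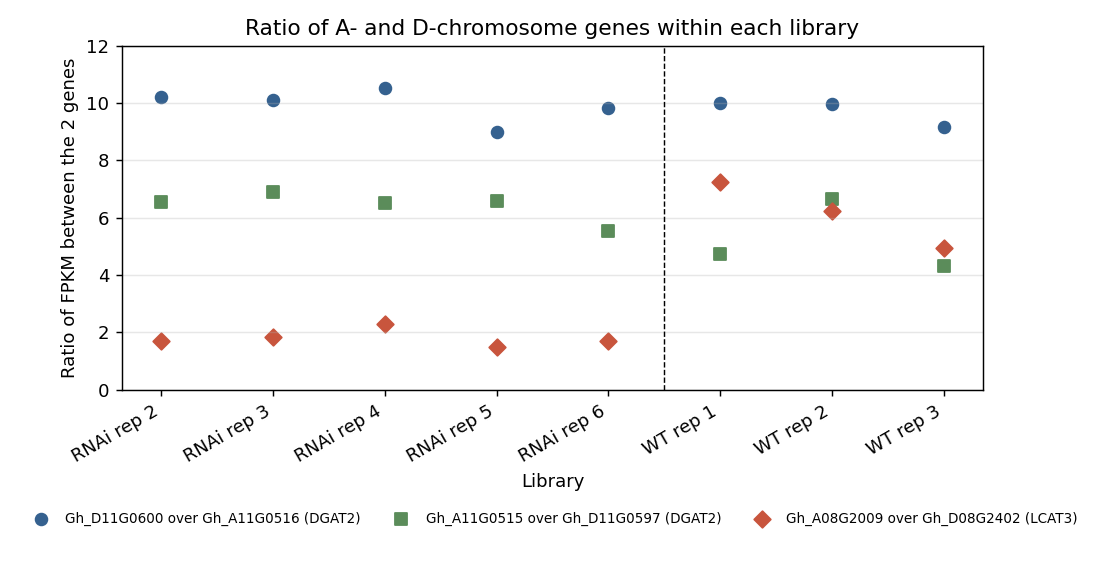
Ratio of the FPKM of 2 genes with the same symbol within each library (vertical axis, linear), with RNAi libraries left of the dashed line and WT libraries right of it. The LCAT3 ratio (red diamonds) lies between 1.49 and 2.29 in RNAi and between 4.93 and 7.27 in WT. The ratio of Gh_D11G0600 to Gh_A11G0516 (blue circles) stays between 8.99 and 10.5 throughout. That of Gh_A11G0515 to Gh_D11G0597 (green squares) lies between 5.55 and 6.88 in RNAi and between 4.32 and 6.64 in WT.

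The DGAT2 genes carry consecutive numbers, with 5 on D11 (Gh_D11G0596 to Gh_D11G0600) and 3 on A11 (Gh_A11G0514 to Gh_A11G0516). On both chromosomes an ACT7 actin gene is numbered shortly before them, and IDL2, PUB27, GUX1 and PME51 follow in the same order. The LCAT3 genes have PRFB1 and PIE1 after them on both A08 and D08. The numbers are those of the identifiers, and positions were not used here.

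Numbering neighbours of the chosen genes were examined after the values were seen. Within 10 numbers of Gh_D11G0596, 8 genes other than DGAT2 could be tested, and their log2 fold changes ran from -0.27 (Gh_D11G0592, ACT7) to 0.24 (Gh_D11G0594, At1g49180). Gh_D11G0595 (WAT1), the gene numbered directly before it, averaged 23.9 ± 6.14 FPKM in RNAi and 20.7 ± 5.43 FPKM in WT. Gh_D11G0597, directly after it, is the DGAT2 gene described above. Within 10 numbers of Gh_A08G2009, 13 genes could be tested, from -0.62 (Gh_A08G2014, HHT1) to 0.56 (Gh_A08G2013, At2g43240). Gh_A08G2008 (BBM), directly before it, was listed at 0 in every library. Gh_A08G2010 (PRFB1), directly after it, averaged 1.75 ± 0.613 FPKM in RNAi and 1.63 ± 0.0230 FPKM in WT. None of these neighbours passed limma's threshold, against 0.167% of all tested genes, so with so few genes a count of 0 is no finding.

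**Figure D4:**
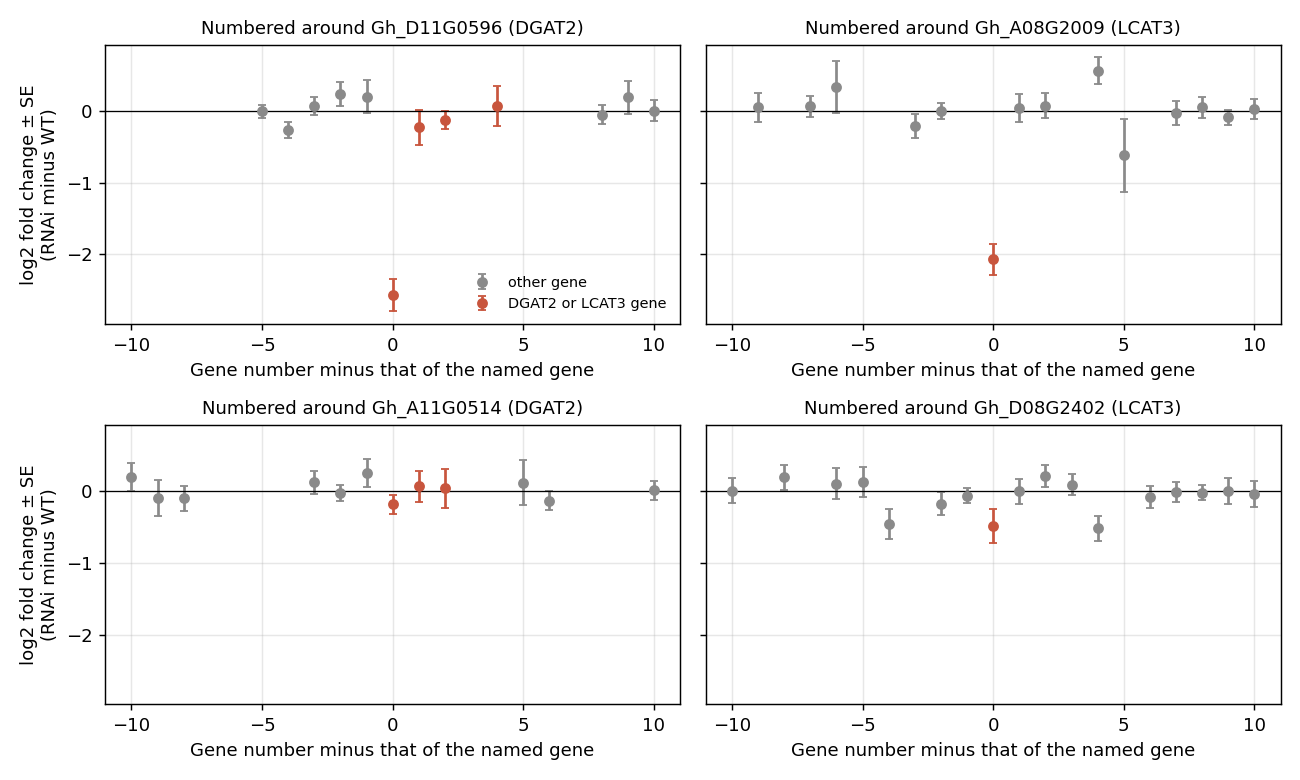
Log2 fold change (RNAi minus WT) with its SE for tested genes within 10 numbers of each named gene, against the difference in gene number. Gh_D11G0596 and Gh_A08G2009, chosen for their fall, lie at -2.57 and -2.07, while the other genes around them lie between -0.62 and 0.56.

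To place the members in their pathway, 8 lists of lipid genes chosen by symbol were examined, with 338 tested genes of 646 in all. None of the 338 passed limma's threshold, against 0.167% of all genes. At such a share a count of 0 is no finding, here or in any single list below. At an unadjusted p under 0.05 there were 24 (7.10%), against 5.86% of all genes. The groups did not overlap in 19 of them (5.62%), against 4.07% of all genes. The median log2 fold change was -0.02 in the lists and -0.02 over all tested genes.

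The enzymes most like the members had the following levels. The DGAT1 genes, which catalyse the same reaction as DGAT2, summed to 6.62 ± 1.16 FPKM in RNAi and 7.14 ± 1.48 FPKM in WT (2 genes), far below the DGAT2 sum. The 8 PDAT1 genes summed to 50.5 ± 5.66 FPKM in RNAi and 56.5 ± 3.19 FPKM in WT. The 6 LCAT4 genes, named after an Arabidopsis phospholipase of the same family as LCAT3, summed to 30.6 ± 2.13 FPKM in RNAi and 32.9 ± 3.93 FPKM in WT. Neither the 2 LCAT1 genes nor the 4 PDAT2 genes passed the filter, and each set summed to under 0.2 FPKM in every library.

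Among the LCAT family relatives, 0 of 13 tested genes passed, 7 had a negative and 6 a positive log2 fold change, and the median was -0.05. Gh_A09G0767 (PDAT1) had the lowest adjusted p of all lipid lists, just outside the threshold. It stood at 8.88 ± 0.695 FPKM in RNAi (SD, n = 5) and 15.3 ± 1.02 FPKM in WT (SD, n = 3). Its groups did not overlap, with RNAi libraries between 7.96 and 9.85 FPKM and WT libraries between 14.5 and 16.4 FPKM. The difference was -0.72 ± 0.11 on the log2 scale (SE), with a limma adjusted p of 0.0533, which passed in 2 of the alternatives. Gh_D09G0766 (PDAT1), on the D chromosome of the same number, stood at 13.2 ± 1.97 FPKM in RNAi and 13.8 ± 0.636 FPKM in WT (limma adjusted p = 0.944). Next in the list was Gh_D10G0433 (LCAT4), at 6.09 ± 0.798 FPKM in RNAi and 8.11 ± 2.32 FPKM in WT. Its WT mean is raised by WT replicate 3, at 10.8 FPKM, while WT replicates 1 and 2 had 6.65 and 6.90 FPKM. With single libraries left out its log2 fold change ran from -0.45 to -0.14, against -0.34 with all libraries. Gh_A10G0419 (LCAT4) followed, at 1.37 ± 0.664 FPKM in RNAi and 1.91 ± 0.635 FPKM in WT.

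Of the triacylglycerol assembly genes, from the first acylation of glycerol-3-phosphate onward, 0 of 63 passed, and the median log2 fold change was -0.03. After PDAT1, the lowest p belonged to Gh_A09G1528 (GPAT6, an acyltransferase known from Arabidopsis for cutin synthesis), at 11.5 ± 2.53 FPKM in RNAi and 6.46 ± 2.89 FPKM in WT. Gh_A04G0886 (WSD1, a wax ester synthase) followed, at 2.26 ± 0.561 FPKM in RNAi and 1.31 ± 0.0314 FPKM in WT. The LPAT2 genes, for the second acylation, summed to 112 ± 5.15 FPKM in RNAi and 107 ± 5.77 FPKM in WT. The ROD1 genes, for the exchange of headgroups between phosphatidylcholine and diacylglycerol, summed to 17.1 ± 3.25 FPKM in RNAi and 20.2 ± 3.49 FPKM in WT.

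**Figure D5:**
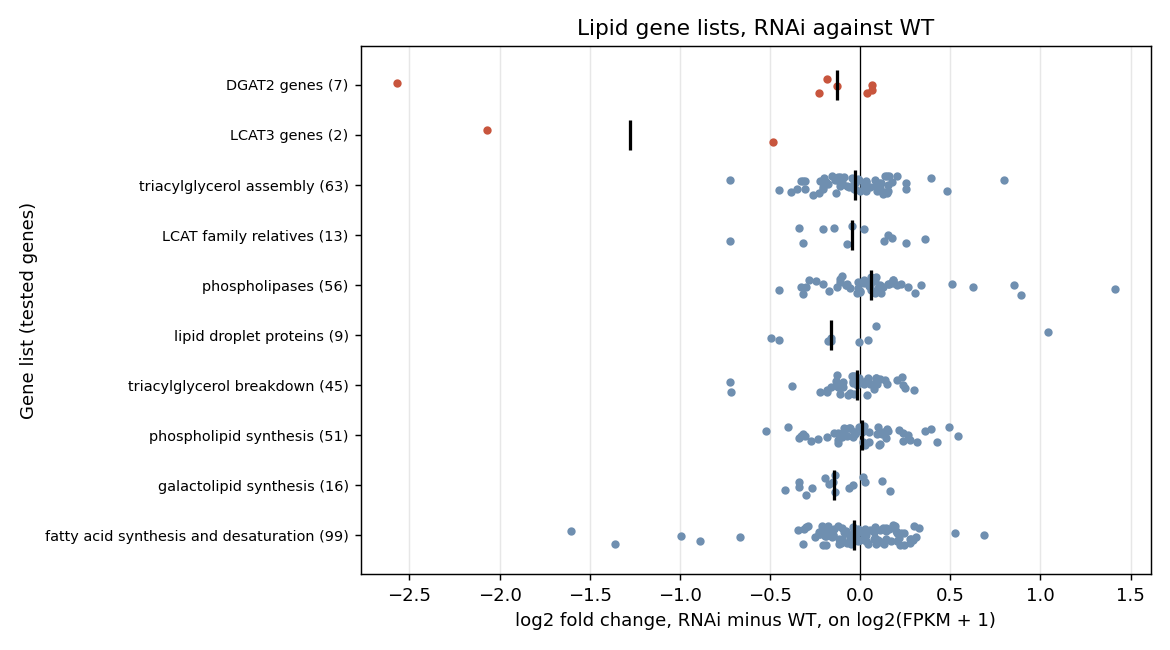
Log2 fold change (RNAi minus WT, horizontal axis) of the tested genes of each list, 1 point per gene, with a bar at the list's median and the number of tested genes in brackets. The 2 chosen members lie at -2.57 and -2.07, below all tested genes of the 8 lipid lists. They were chosen for their fall, so this place is no finding. The medians of the 8 lipid lists lie between -0.16 and 0.06.

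Of the phospholipases, 0 of 56 passed, and the median was 0.06. Gh_A09G0667 (PLA1) stood at 2.21 ± 0.315 FPKM in RNAi and 3.38 ± 0.246 FPKM in WT. The PLA2-ALPHA genes, named after a small secreted phospholipase of Arabidopsis, had higher means in RNAi without passing. Gh_A05G0016 (PLA2-ALPHA) stood at 5.79 ± 2.13 FPKM in RNAi and 1.98 ± 2.41 FPKM in WT, and Gh_D05G0020 (PLA2-ALPHA) at 2.21 ± 0.760 FPKM in RNAi and 0.814 ± 0.898 FPKM in WT. WT replicate 2 overlapped the RNAi libraries in both genes.

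Most genes for lipid droplet proteins, which coat or shape stored triacylglycerol, were not expressed at a level that allowed a test. The list as a whole still summed to between 844 and 1048 FPKM in RNAi libraries and between 857 and 931 FPKM in WT libraries. The genes named below carry a small part of that sum. Of 41 genes, 9 were tested, 0 passed, and the median was -0.16. The oleosins OLE1, OLE3, OLE9 and OLE16, the main droplet coat of oil seeds, had no member above the filter, and the highest of their sums in any library was 1.72 FPKM (OLE3, in RNAi). Gh_A04G1232 (PXG4, a caleosin-type peroxygenase) stood at 36.4 ± 7.55 FPKM in RNAi and 51.1 ± 7.57 FPKM in WT. Gh_D12G1520 (PXG4) stood at 33.8 ± 7.42 FPKM in RNAi and 37.8 ± 3.95 FPKM in WT. Gh_A09G0574 (PXG3) stood at 2.32 ± 2.21 FPKM in RNAi and 0.396 ± 0.138 FPKM in WT. Its RNAi mean rests largely on RNAi replicate 4, the shallowest library, at 6.07 FPKM, while the other RNAi libraries lay between 0.599 and 2.56 FPKM. Without RNAi replicate 4 its log2 fold change was 0.72, against 1.04 with all libraries. The Bscl2 genes, for seipin of droplet formation, summed to 4.67 ± 0.602 FPKM in RNAi and 5.12 ± 0.818 FPKM in WT.

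Of the triacylglycerol breakdown genes 0 of 45 passed, and the median was -0.02. The SDP1 lipase genes, which start the breakdown of seed oil in Arabidopsis, summed to 32.6 ± 7.75 FPKM in RNAi and 32.1 ± 5.78 FPKM in WT. Acyl-CoA oxidases, for the first step of peroxisomal beta-oxidation, had the lowest p. Gh_D01G0186 (ACX3) stood at 26.01 ± 3.45 FPKM in RNAi and 44.1 ± 12.2 FPKM in WT, Gh_D10G2577 (Acx) at 0.731 ± 0.260 FPKM in RNAi and 1.85 ± 0.451 FPKM in WT, and Gh_A07G1442 (ACX1) at 2.54 ± 0.417 FPKM in RNAi and 3.59 ± 0.554 FPKM in WT.

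Membrane lipid and fatty acid synthesis gave 0 calls as well, among 51 phospholipid, 16 galactolipid and 99 fatty acid genes. The share over all tested genes was 0.167%, so these counts are no finding. Gh_D12G2555 (NMT1) stood at 11.5 ± 1.61 FPKM in RNAi and 15.5 ± 1.87 FPKM in WT. It was listed by its symbol alone, taken here for an enzyme of the methylation that leads to phosphocholine. Gh_A05G2995 (PGPS1, phosphatidylglycerol phosphate synthase) stood at 12.9 ± 0.908 FPKM in RNAi and 10.2 ± 1.31 FPKM in WT, and Gh_D06G1247 (AAPT1, for the last step of phosphatidylcholine and phosphatidylethanolamine synthesis) at 3.54 ± 1.196 FPKM in RNAi and 2.08 ± 0.747 FPKM in WT. The SQD1 genes, of sulfolipid synthesis, stood at 13.7 ± 1.89 FPKM in RNAi and 17.6 ± 2.61 FPKM in WT (Gh_D05G0429) and at 11.2 ± 1.25 FPKM in RNAi and 14.1 ± 1.74 FPKM in WT (Gh_A05G0324). Gh_A01G1717 (DGD1, a galactolipid synthase) stood at 9.79 ± 0.802 FPKM in RNAi and 13.9 ± 5.05 FPKM in WT. Its WT mean is raised by WT replicate 3, at 19.5 FPKM, while WT replicates 1 and 2 had 12.4 and 9.79 FPKM. With single libraries left out its log2 fold change ran from -0.62 to -0.16, against -0.42 with all libraries.

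In the fatty acid list, log2 fold changes ran from -1.61 to 0.69, with a median of -0.04. The 3 genes with its lowest p are given here. Gh_A05G1069 (FATB1, a thioesterase that releases saturated fatty acids) stood at 4.67 ± 1.64 FPKM in RNAi and 9.40 ± 2.78 FPKM in WT. Its log2 fold change was -0.89, not the largest fall of the list. Gh_D13G0148 (accB, a subunit of plastid acetyl-CoA carboxylase) stood at 9.83 ± 1.999 FPKM in RNAi and 5.83 ± 1.97 FPKM in WT, and Gh_D08G0158 (MOD1, enoyl reductase of fatty acid synthesis) at 26.4 ± 2.41 FPKM in RNAi and 21.5 ± 1.96 FPKM in WT. The FAD2 genes, for the desaturase that makes linoleate, summed to 445 ± 41.8 FPKM in RNAi and 423 ± 75.9 FPKM in WT.

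The genes whose profiles over the 8 libraries were most like those of the chosen members were ranked by the root mean square difference of log2(FPKM + 1), each gene centred on its own mean. Much of this likeness is the contrast for which the members were chosen. Nearest to Gh_D11G0596 was Gh_A04G1252 (At1g60630), with a difference of 0.32, at 0.936 ± 0.344 FPKM in RNAi and 7.03 ± 2.30 FPKM in WT. It was followed by Gh_A11G1410 (At2g04570, 0.35), Gh_D12G2702 (SAUR32, named after a small auxin-up RNA, 0.36), Gh_A02G0270 (At5g63930, 0.47) and Gh_A04G1283 (no symbol, 0.48). Nearest to Gh_A08G2009 was Gh_A03G2066 (ISY1, named after a splicing factor), with a difference of 0.20, at 1.31 ± 0.211 FPKM in RNAi and 7.43 ± 1.59 FPKM in WT. Gh_D09G2060 (no symbol, 0.24), Gh_A03G0459 (rnj, 0.24), Gh_A11G2441 (At5g01610, 0.25) and Gh_A04G1283 (no symbol, 0.28) followed. The chosen members differed from each other by 0.56, which placed Gh_A08G2009 at rank 16 for Gh_D11G0596 and Gh_D11G0596 at rank 37 for Gh_A08G2009. The ranking drew on all 34051 tested genes. No DGAT2 or LCAT3 namesake was among the 5 nearest genes of either. As the members were chosen for their fall, that absence is no finding.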

How the data were processed

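The authors deposited 1 table of FPKM values per gene, with 1 column per library; per the submitters' processing notes FastQC, HISAT2 and DESeq 1.10.1 were used, without their role. The genome build, annotation, read counter, strand setting and treatment of reads that match several copies are named in no label or file used here, and FPKM hide the absolute depth, so no counting interval is given. Relative depth came from the most frequent ratio of values under 0.5 FPKM between each library and WT replicate 1; between 48.8% and 70.3% of such ratios lay within 0.005 (log2) of ratios of up to 4 reads.

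Columns were matched to samples by group and replicate number. Genes and symbols were used as the table pairs them. The test was limma's moderated, two-sided test (limma 3.58.1, R 4.3.3) on log2(FPKM + 1), with a mean-variance trend and Benjamini-Hochberg adjustment over all tested genes; the fit was tested on simulated data. Named genes were all members, per lipid list the genes past the threshold and up to 3 with the smallest adjusted p, and the 5 nearest profiles of each chosen gene. Outside this rule, numbering neighbours, Gh_D09G0766 (PDAT1) and the symbols whose summed levels are given were chosen after values were seen. Members and lists were chosen with earlier results of these data known. CAB39, CABIN1, PSAT and VCL1, whose symbols matched a marker pattern but name other proteins, were dropped after the symbols were seen; 12 PDAT and 7 LACS7 genes are on 2 lists. Alternatives were pseudocounts of 0.1 and 0.01, no filter, a filter at 5 FPKM, median-ratio and upper-quartile scaling, no trend, array weights, a replicate block and each library left out.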

Additional observations from a re-analysis of the deposited data

Results flagged for a closer look

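Among the values of the members and of the named lipid genes in the 5 RNAi libraries, 1 lay far from the others. RNAi replicate 2 had 1.11 FPKM of Gh_A08G2009 (LCAT3), and the other RNAi libraries had 1.90 to 2.15 FPKM, so the gap below them took up 0.761 of the range. Such a gap was looked for in 34 sets of RNAi values, all from the same 5 libraries. Nominally chance would flag about 1 in 20 of such sets, a rate that was not tested here. The value is on the far side from WT, whose lowest library had 8.52 FPKM.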

How the results depend on the processing

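Over all genes, 57 passed in the fit used here. The count was 35 with a pseudocount of 0.01, 36 with a filter at 5 FPKM, 88 with array weights and 313 with the replicate number as a block; with single libraries left out it ran from 21 (without WT replicate 3) to 60 (without RNAi replicate 4). It was 22 without WT replicate 2, 35 without WT replicate 1 and 34 without RNAi replicate 5. The groups share only the replicate numbers 2 and 3, whose deviations from the group means correlated at 0.35 and -0.09, so they were not taken as pairs. No namesake of Gh_D11G0596 or Gh_A08G2009 passed in any of the 17 alternatives in which it could be tested. The lipid lists had 0 calls, but 1 with a filter at 5 FPKM and 1 with array weights (Gh_A09G0767, PDAT1, in both; its adjusted p ran from 0.0248 with array weights to 0.374 without WT replicate 3) and 2 with the replicate block (accD and PLP6); with single libraries left out they had 0. Gh_D11G0596 ranged from -4.15 (pseudocount 0.01) to -2.49 on the log2 scale and Gh_A08G2009 from -2.58 (pseudocount 0.01) to -1.80. Without any 1 WT library Gh_D11G0596 did not meet the filter of 1 FPKM in 3 libraries and gave no value. The share of Gh_D11G0596 in the DGAT2 sum differed by -3.13 percentage points (RNAi minus WT), from -3.52 to -2.63 with single libraries left out, and that of Gh_A08G2009 in the LCAT3 sum by -21.7, from -23.1 to -20.6. RNAi values of Gh_D11G0596 are limited by depth, above all in RNAi replicate 4.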
